A study of Mus musculus with 12 samples.

Results

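Transcripts of 7 S100 calcium-binding protein genes, S100a8, S100a9, S100a4, S100a6, S100a10, S100a11 and S100a13, were followed in mouse bone marrow neutrophils cultured with bile acids. The members were chosen by name, with earlier results of these data known. All 7 are among the 29737 genes of the count table and the 16761 genes with enough counts to be tested. Wild-type neutrophils were isolated from bone marrow with magnetic EasySep beads (Ly6G+ per the labels) and cultured for 24 h in RPMI medium with fetal bovine serum. Per the study's methods the donors were female animals of the C57BL/6 strain, aged 4 to 6 weeks. Each of the 4 groups had 3 samples, 12 in all. The control group received PBS. The bile acid groups received taurocholic acid (TCA), glycocholic acid (GCA) or tauro-β-muricholic acid (Tβ-MCA). TCA and GCA were given at 200 μM, and Tβ-MCA at 10 μM per the labels, while the methods text gives it the same dose as the other two. The PBS replicates carry the numbers 3, 5 and 6, those of the bile acids 3, 4 and 5. Nothing says whether the samples of a group came from separate animals, so p-values measure the spread between these samples, which may be technical. The question put to these samples was whether primary bile acids act on neutrophils directly.

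S100 proteins are small calcium-binding proteins of the EF-hand family that mostly act as dimers and have no enzymatic activity of their own. S100a8 and S100a9 pair to form calprotectin, the most abundant protein complex of the neutrophil cytosol, which binds zinc and manganese and, once released, is a ligand of the receptors TLR4 and RAGE. The remaining members act mainly inside cells, where S100a4 binds non-muscle myosin, S100a6 and S100a11 bind annexins, and S100a10 forms a tetramer with annexin A2. S100a13 takes part in the release of proteins that lack a signal peptide.

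Each sample held 32757389 to 41375925 counts, and a count of 3 corresponded to 0.0725 to 0.0931 CPM (counts scaled to a common library size). All CPM values use library sizes adjusted by edgeR's TMM method. The neutrophil label was checked against 10 markers, none of which was at 0 and whose summed level was 28480 to 36130 CPM with PBS and 22980 to 25690 CPM with Tβ-MCA. Ly6g, the gene of the Ly6G antigen that the labels name for these cells, was at 7.54 to 21.4 CPM over the 12 samples. Markers of other cells were also present. With PBS, 10 monocyte and macrophage markers summed to 1035 to 1060 CPM. The 6 early granulocyte and cycling markers summed to 2528 to 3043 CPM with PBS, with Mki67 alone at 1744 to 2156 CPM.

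Within a sample the members spanned more than 3 orders of magnitude per transcript length. S100a9 was the gene with the highest RPKM (counts scaled to library size and exon length) of all genes in all 12 samples, at 34462 to 47694 RPKM. The next gene in every sample was Ngp, a neutrophil granule protein gene, at 10276 to 15100 RPKM. S100a8 stood at 1887 to 2605 RPKM and ranked between 9 and 10 among all genes. The level of S100a9 was thus far above that of its calprotectin partner, with an S100a9 to S100a8 ratio of RPKM between 16.4 and 19.8. That ratio was 18.7 ± 0.467 (SD, n = 3) with PBS, 17.4 ± 1.73 with TCA, 18.6 ± 1.1 with GCA and 18.7 ± 0.461 with Tβ-MCA, and the ranges of the groups overlapped. In counts, without exon length, the ratio was 12.3 to 14.9. The RPKM ratio rests on the deposited exon lengths, 522 bases for S100a9 and 694 for S100a8. S100a11 ranked between 22 and 48 at 751 to 1061 RPKM. The 7 members took 2.00% to 2.72% of all counts of a sample, and S100a9 made up 89.5% to 91.5% of their counts.

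The lower members lay closer together. S100a4 was at 17.9 to 156 RPKM, the widest range of the 7 as a ratio of the highest to the lowest sample, and S100a6 at 40.7 to 117 RPKM. S100a13 was at 30.7 to 38.0 RPKM and S100a10 at 5.52 to 14.7 RPKM. The order S100a9, S100a8, S100a11, S100a4, S100a6, S100a13, S100a10 was found in 7 of the 12 samples. S100a4 and S100a6 exchanged places in the remaining 5, which were the 4 samples numbered 3 and Tβ-MCA replicate 4, and their ranges overlapped within every group. In Tβ-MCA replicate 3 S100a4 stood below S100a13 as well. S100a9, S100a8 and S100a11 held their places in all 12 samples, whether levels were taken as RPKM or as TPM, which rescales them to 1 total per sample.

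**Figure D1:**
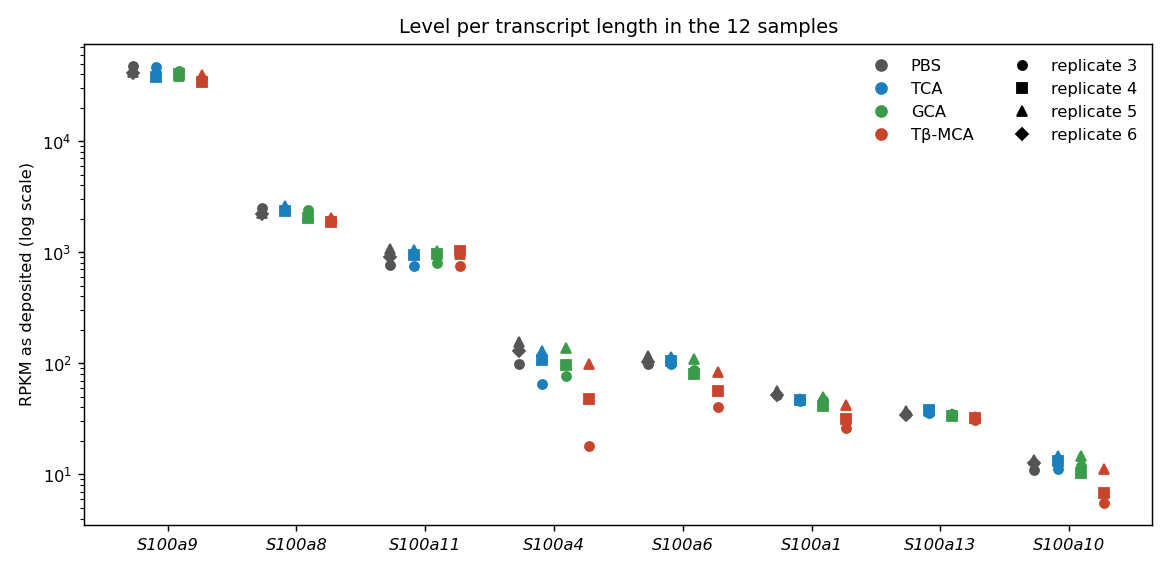
Deposited RPKM (log axis) of the 7 members and of the neighbouring S100a1 in the 12 samples, coloured by group and shaped by replicate number, with genes ordered by their median. S100a9 lies at 34462 to 47694 RPKM and S100a10 at 5.52 to 14.7 RPKM, and S100a4 has the widest range on this log axis.

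The genes lie on chromosome 3 of GRCm38 in the deposited table. S100a13 (chr3:90514435-90524581), S100a4 (chr3:90603771-90606045), S100a6 (chr3:90612882-90624181) and S100a8 (chr3:90668978-90670035) are on the plus strand. S100a9 (chr3:90692632-90695721) is on the minus strand, and 22596 bases without another listed gene separate it from S100a8. S100a11 (chr3:93520488-93526287) and S100a10 (chr3:93555080-93564643) form a separate pair of neighbours on the plus strand, 28792 bases apart. Promoter entries from RefSeq (GRCm38.p6) were found for 6 of the 7 members, all but S100a10. The 250 bases before each start were searched on both strands for 5 motifs. These were TTGCNNAA of the C/EBP factors (in 9.56% of 32851 windows of this length), TGANTCA of AP-1 (6.75%), the hypoxia response core ACGTG (16.6%), GAGGAA of PU.1 (23.3%) and the TATA box TATAAA (12.4%). No 2 motifs matched the same bases in the windows of the members, and a match is only a description of the letters. S100a6 and S100a13 held no match to the 5 motifs.

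With Tβ-MCA, S100a8 was the only member that passed the test against PBS and it was lower, 1 of 7 members, against 3.18% of all 16761 tested genes called lower and 7.62% called in either direction. A gene was called when its p from edgeR's quasi-likelihood test, adjusted by the Benjamini-Hochberg method over all tested genes, was under 0.05. DESeq2 called 4 members lower, S100a8, S100a9, S100a6 and S100a10, against 7.53% of the 13832 genes it gave an adjusted p. With the replicate number as a block, edgeR called 3 members lower, S100a8, S100a9 and S100a10, where 727 of 16761 tested genes were called lower. At an unadjusted p under 0.05, 5 of 7 members were lower, against 12.3% of all genes. For 6 of 7 members, all but S100a11, every Tβ-MCA sample was below every PBS sample, against 12.8% of all genes. The median log2 fold change of the 7 members was -0.30, beside 0.004 for all tested genes. No member met the second rule, an unadjusted p under 0.05 with a fold change of 2, which 1.86% of genes met in the lower direction. This rule is the one the study's methods give for edgeR. Those methods also name DESeq2 with Benjamini-Hochberg adjustment, and its calls are given above. With only the 2 groups in the fit no gene was called, so none of the calls named here held under that setting. In bulk RNA, fewer cells of a type and less RNA per cell cannot be told apart.

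**Figure D2:**
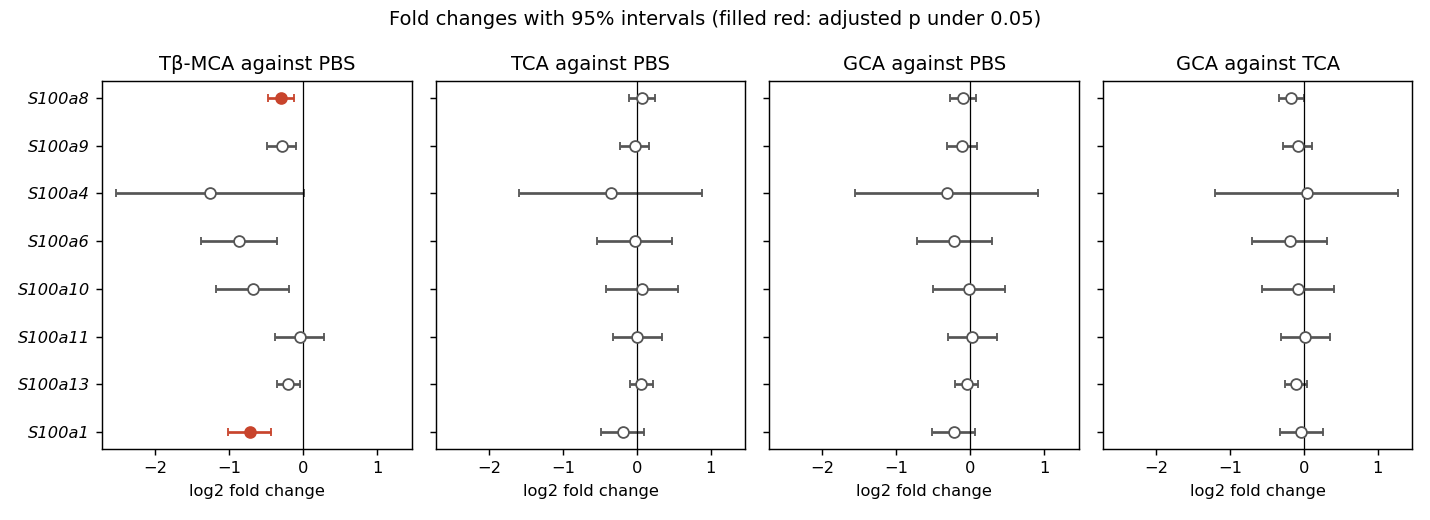
Log2 fold changes (points) with 95% intervals (bars) of the 7 members and of S100a1 in the 4 comparisons, with calls at an adjusted p under 0.05 filled in red. With Tβ-MCA the interval of S100a8 runs from -0.47 to -0.12, and in the other 3 comparisons every interval includes 0.

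S100a8, the smaller chain of calprotectin, was at 1765, 1589 and 1544 CPM in the PBS samples and at 1315, 1270 and 1396 CPM in the Tβ-MCA samples. The groups did not overlap, and the difference between the group means was larger than the spread within either. The log2 fold change was -0.30 (SE 0.082, n = 3 per group) and its adjusted p was 0.0402 (edgeR's quasi-likelihood test, Benjamini-Hochberg). The Tβ-MCA mean was 0.813 times that of PBS. The call was near the threshold. Leaving out any 1 of PBS replicates 3, 5 and 6 or Tβ-MCA replicates 3 and 4 ended it, with adjusted p of 0.0602 to 0.171, and it held without Tβ-MCA replicate 5, at 0.0164. No gene at all was called without PBS replicate 3 or 5 or Tβ-MCA replicate 3 or 4, and 168 genes were called without PBS replicate 6. Fitted with the 2 groups alone, S100a8 had an adjusted p of 0.0739.

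S100a9, the larger chain, was at 25502, 22050 and 21325 CPM with PBS and at 18484, 17455 and 20149 CPM with Tβ-MCA. The groups again did not overlap. The log2 fold change of -0.30 (SE 0.093) was close to that of S100a8 but gave an adjusted p of 0.0631 (edgeR, Benjamini-Hochberg), above the threshold. Without Tβ-MCA replicate 5 the adjusted p was 0.0224. PBS replicate 3 had the highest S100a8 and S100a9 of the PBS samples, and without it the log2 fold changes were -0.24 for S100a8 and -0.21 for S100a9.

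The promoter windows of this pair are shown because the 2 transcripts had nearly the same fold change. Capitals mark the matches. S100a8 (chr3:90668821-90669070, plus strand) holds TATAAA at 30 to 25 bases before the RefSeq start, directly after GAGGAA on the opposite strand at 36 to 31, and a second such match at 170 to 165. The S100a8 model of the deposited table starts inside this window. S100a9 (chr3:90695722-90695971, minus strand) holds none of these but has the C/EBP letters at 236 to 229.
S100a8: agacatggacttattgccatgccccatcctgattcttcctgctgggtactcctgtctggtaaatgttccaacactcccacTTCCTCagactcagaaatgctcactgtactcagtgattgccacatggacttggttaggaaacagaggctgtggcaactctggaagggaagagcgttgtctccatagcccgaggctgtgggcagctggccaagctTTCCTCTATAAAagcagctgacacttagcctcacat
S100a9: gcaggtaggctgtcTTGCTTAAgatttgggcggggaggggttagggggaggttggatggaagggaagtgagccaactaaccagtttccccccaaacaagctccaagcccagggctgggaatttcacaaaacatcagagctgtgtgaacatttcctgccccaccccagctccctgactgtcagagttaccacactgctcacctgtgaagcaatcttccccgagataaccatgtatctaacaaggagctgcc

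S100a4, which binds non-muscle myosin and is found in motile cells, had the largest fold change of the members and also the largest spread. It was at 58.8, 92.2 and 76.1 CPM with PBS and at 10.3, 27.1 and 57.1 CPM with Tβ-MCA. The highest Tβ-MCA sample, replicate 5, lay just under the lowest PBS sample, replicate 3. The log2 fold change was -1.26 (SE 0.55) with a 95% interval of -2.53 to 0.00 and an adjusted p of 0.202 (edgeR, Benjamini-Hochberg). Without Tβ-MCA replicate 5 it was -2.01, with an adjusted p of 0.0310. Leaving out any other 1 PBS or Tβ-MCA sample gave an adjusted p of 0.254 to 0.425 (edgeR). The standard deviation of S100a4 was 75.3% of the mean with Tβ-MCA and 22.1% to 31.4% in the other groups.

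The S100a4 count is uncertain for a reason of annotation. Gm42674, a predicted gene on the same strand, shares exons with S100a4, and its count was at least 99.1% of that of S100a4 in each of the 12 samples, so the same reads appear to be counted for both. The window before the S100a4 start (chr3:90603520-90603769, plus strand) is shown because this gene shares a TATA box match with S100a8, here at 31 to 26 bases before the start.
S100a4: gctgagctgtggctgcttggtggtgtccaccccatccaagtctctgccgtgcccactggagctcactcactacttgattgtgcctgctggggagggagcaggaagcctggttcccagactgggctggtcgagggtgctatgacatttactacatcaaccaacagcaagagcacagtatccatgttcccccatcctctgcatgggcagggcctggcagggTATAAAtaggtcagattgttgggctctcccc

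S100a6, also called calcyclin, was at 139, 161 and 142 CPM with PBS and at 54.6, 74.7 and 113 CPM with Tβ-MCA. All 3 Tβ-MCA samples were lower, replicate 3 the most and replicate 5 the least. The log2 fold change of -0.87 (SE 0.23) had an adjusted p of 0.0505 (edgeR, Benjamini-Hochberg), just outside the threshold, and of 0.0436 when only genes with at least 10 counts in every sample were tested. Its interval was -1.38 to -0.35.

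S100a10, the annexin A2 partner that does not itself bind calcium, was at 13.6, 16.4 and 15.3 CPM with PBS and at 6.55, 8.05 and 13.5 CPM with Tβ-MCA. The groups did not overlap, but Tβ-MCA replicate 5 lay just under PBS replicate 3, while the other two were well below. Its log2 fold change was -0.69 (SE 0.23), with an adjusted p of 0.0868 (edgeR, Benjamini-Hochberg). Without Tβ-MCA replicate 5 it was -1.05, with an adjusted p of 0.00055. Leaving out any other 1 PBS or Tβ-MCA sample gave an adjusted p of 0.146 to 0.285 (edgeR). Anxa2, the partner of S100a10, had a log2 fold change of -0.01 (SE 0.058), with an interval of -0.13 to 0.12.

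S100a11, an annexin-binding member, was the exception. It was at 398, 547 and 467 CPM with PBS and at 376, 508 and 481 CPM with Tβ-MCA, so the groups overlapped. Its log2 fold change was -0.05 (SE 0.15), and the interval of -0.38 to 0.28 still allows differences of the size seen for S100a8. The lowest values of S100a11 in all 4 groups were those of the replicates numbered 3. Its promoter window (chr3:93520246-93520495, plus strand) is shown for contrast with those above. It held TGAGTCA at 136 to 130 and at 38 to 32 bases before the start, GAGGAA at 153 to 148, and CACGTG, in which the hypoxia core reads on both strands, and no TATAAA.
S100a11: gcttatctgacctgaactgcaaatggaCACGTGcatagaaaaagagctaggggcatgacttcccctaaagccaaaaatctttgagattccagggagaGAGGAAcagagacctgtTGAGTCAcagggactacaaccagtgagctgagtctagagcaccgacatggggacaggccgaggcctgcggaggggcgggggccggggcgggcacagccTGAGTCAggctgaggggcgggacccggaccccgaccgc

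S100a13, a partner in the release of proteins without a signal peptide, varied least. It was at 25.8, 26.8 and 24.6 CPM with PBS and at 21.5, 22.3 and 23.2 CPM with Tβ-MCA. The groups did not overlap, yet the difference was small, a log2 fold change of -0.21 (SE 0.073) with an adjusted p of 0.0952 (edgeR, Benjamini-Hochberg).

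**Figure D3:**
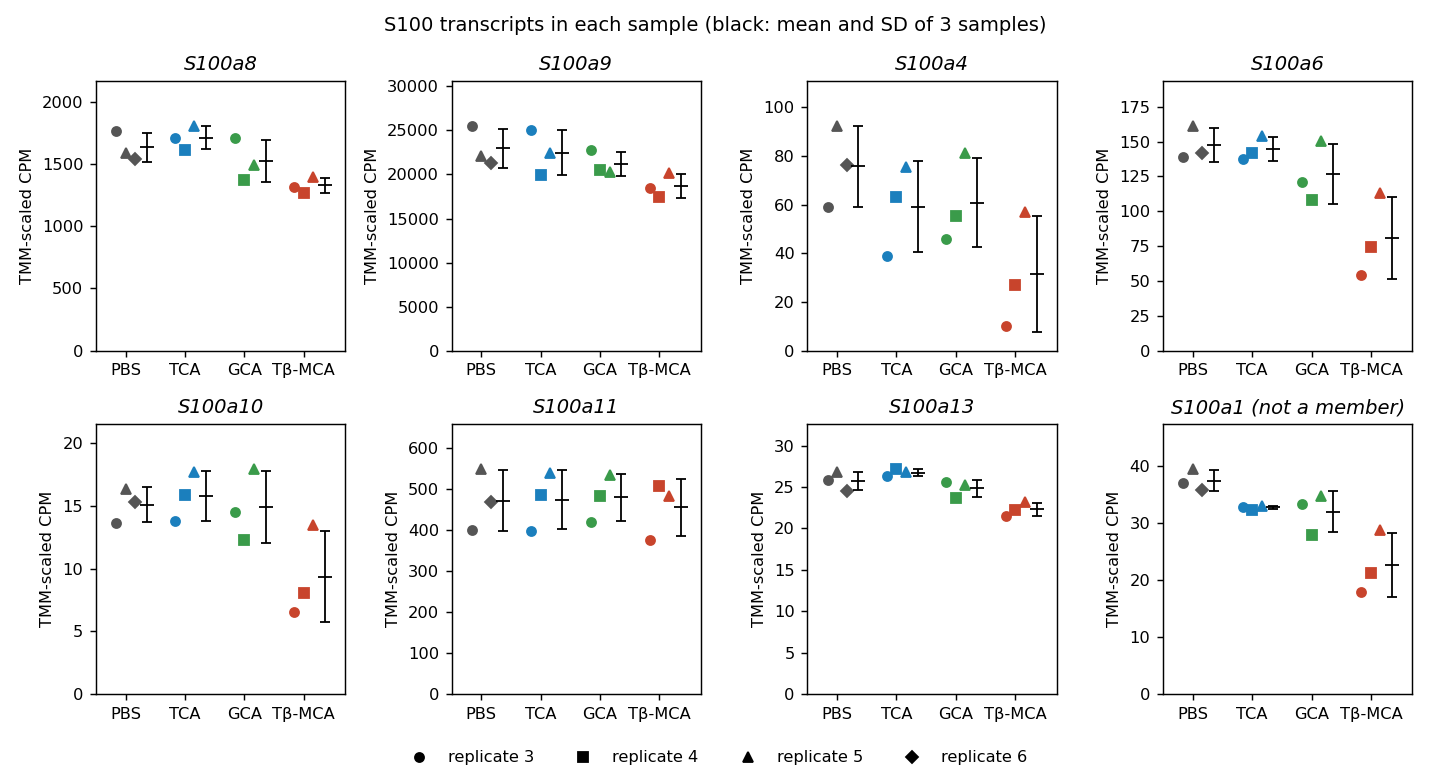
TMM-scaled CPM of the 7 members and S100a1 in each sample, 1 panel per gene, with points shaped by replicate number and black bars for the mean and SD of 3 samples. S100a8 with Tβ-MCA lies at 1270 to 1396 CPM, below all PBS samples at 1544 to 1765 CPM, while the S100a11 groups overlap.

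S100a1, which is no member but the immediate neighbour of S100a13, fell more. It was at 37.0, 39.4 and 35.8 CPM with PBS and at 17.8, 21.2 and 28.8 CPM with Tβ-MCA, a log2 fold change of -0.73 (SE 0.14) with an adjusted p of 0.0208 (edgeR, Benjamini-Hochberg). S100a1 was also below every PBS sample with TCA (32.3 to 32.9 CPM) and with GCA (27.8 to 34.7 CPM). Its log2 fold changes there were -0.19 (-0.48 to 0.09) and -0.23 (-0.51 to 0.06), without a call. Groups did not overlap for 9.67% of genes with TCA and 9.55% with GCA. S100a1, known for its role in calcium handling of muscle, is transcribed away from S100a13 on the minus strand (chr3:90511034-90514392). RefSeq places their start sites 105 bases apart. The 104 bases between them (chr3:90514331-90514434, plus strand) lie upstream of both RefSeq starts and are shown for that reason, although the S100a1 model of the deposited table covers 62 of them. They hold no match to the 5 motifs, so no letter is in capitals. The fold changes of the 2 genes were not tested against each other. The S100a1 call ended, with adjusted p of 0.0703 to 0.116, when PBS replicate 3 or 5 or Tβ-MCA replicate 3 or 4 was left out. In each of those settings no gene at all was called. The S100a1 call held without either of the other 2 samples.
S100a1 and S100a13: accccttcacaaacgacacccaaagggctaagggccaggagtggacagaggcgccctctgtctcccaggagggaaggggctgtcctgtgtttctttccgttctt

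Of 10 further S100 genes listed, 8 were in the table, and 3 of these passed the filter on low counts. S100a1 was called, and S100a3 and S100a7a, with counts of 2 to 16 and 5 to 20, were not. S100a3 overlaps S100a2 and Gm42674, both on its own strand, which leaves its count in doubt. S100a2 was not on the list and was added after its values were seen. It passed the filter, with counts of 11 to 26 that share this doubt, and its log2 fold change with Tβ-MCA was 0.18 (-0.71 to 1.07). S100a5, S100a14, S100a16, S100b and S100g had at most 10 counts in any sample. S100a7l2 and S100z, the remaining genes of the list, have no entry under these names in the count table.

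The 3 Tβ-MCA samples differed in how far they were from PBS. For all 6 members with separate groups, Tβ-MCA replicate 5 was the sample nearest the PBS mean. Over the 2153 genes whose Tβ-MCA samples all lay below the PBS samples it was the nearest for 75.3%, and over all tested genes for 56.2%, so this library stood nearer to PBS as a whole. For S100a6 its log2 difference from the PBS mean was -0.38, against -1.43 for replicate 3 and -0.98 for replicate 4. For S100a8 the 3 differences lay closer, at -0.31, -0.36 and -0.22. Without Tβ-MCA replicate 5, S100a8, S100a9, S100a4, S100a6 and S100a10 were called lower, 5 of 7, against 9.44% of the 17131 genes tested without it. Leaving out any other PBS or Tβ-MCA sample left 0 members called, where 0 to 168 of all tested genes were called.

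Markers of other cells and of neutrophils are given beside these differences, monocyte markers first. For reference, edgeR called 3.18% of all tested genes lower with Tβ-MCA, and DESeq2 7.53% of those it gave an adjusted p. At an unadjusted p under 0.05, 12.3% of all tested genes were lower. For 12.8% every Tβ-MCA sample was below every PBS sample. The 10 monocyte and macrophage markers summed to 290, 350 and 811 CPM in Tβ-MCA replicates 3, 4 and 5, against 1035 to 1060 CPM with PBS. All 10 had log2 fold changes below 0 (median -0.85), the groups did not overlap for 7, and none was called by edgeR's quasi-likelihood test, with 6 lower at an unadjusted p under 0.05 and 5 called by DESeq2. Ccr2, the chemokine receptor that marks classical monocytes, was at 51.2, 37.3 and 37.9 CPM with PBS and at 2.03, 2.70 and 29.2 CPM with Tβ-MCA. Of 10 neutrophil markers edgeR called 3 lower (Ly6g, Mmp9 and Camp) and DESeq2 called 7, with 7 lower at an unadjusted p under 0.05. Their groups did not overlap for 7, and their median log2 fold change was -0.47. Among the other lists, edgeR called 1 of 6 eosinophil markers (Siglecf) and 1 of 7 B cell markers (Cd79a) lower, and DESeq2 called these and the eosinophil marker Prg2. The eosinophil list summed to 144 to 254 CPM with PBS and to 57.6 to 130 CPM with Tβ-MCA, and the B cell list to 11.2 to 18.5 and 8.48 to 10.9 CPM. Of 6 early granulocyte and cycling markers none was called by edgeR and 3 by DESeq2, with 4 at an unadjusted p under 0.05. The groups did not overlap for Mpo, Elane, Prtn3 and Ctsg, which were lower. The cycling markers were not lower, with means of 1901.7 and 1925.5 CPM for Mki67 and 571 and 609 CPM for Top2a with PBS and Tβ-MCA. This list summed to 2528 to 3043 CPM with PBS and to 2563 to 2763 CPM with Tβ-MCA. The basophil and mast cell list (33.2 to 63.5 against 30.6 to 55.4 CPM), the T and NK cell list (1.49 to 3.09 against 0.748 to 1.45 CPM) and the erythroid list (1.35 to 2.54 against 1.44 to 2.32 CPM) held no call by edgeR or DESeq2, with 1, 1 and 0 genes at an unadjusted p under 0.05. The part of these cells in the S100 values was not tested.

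**Figure D4:**
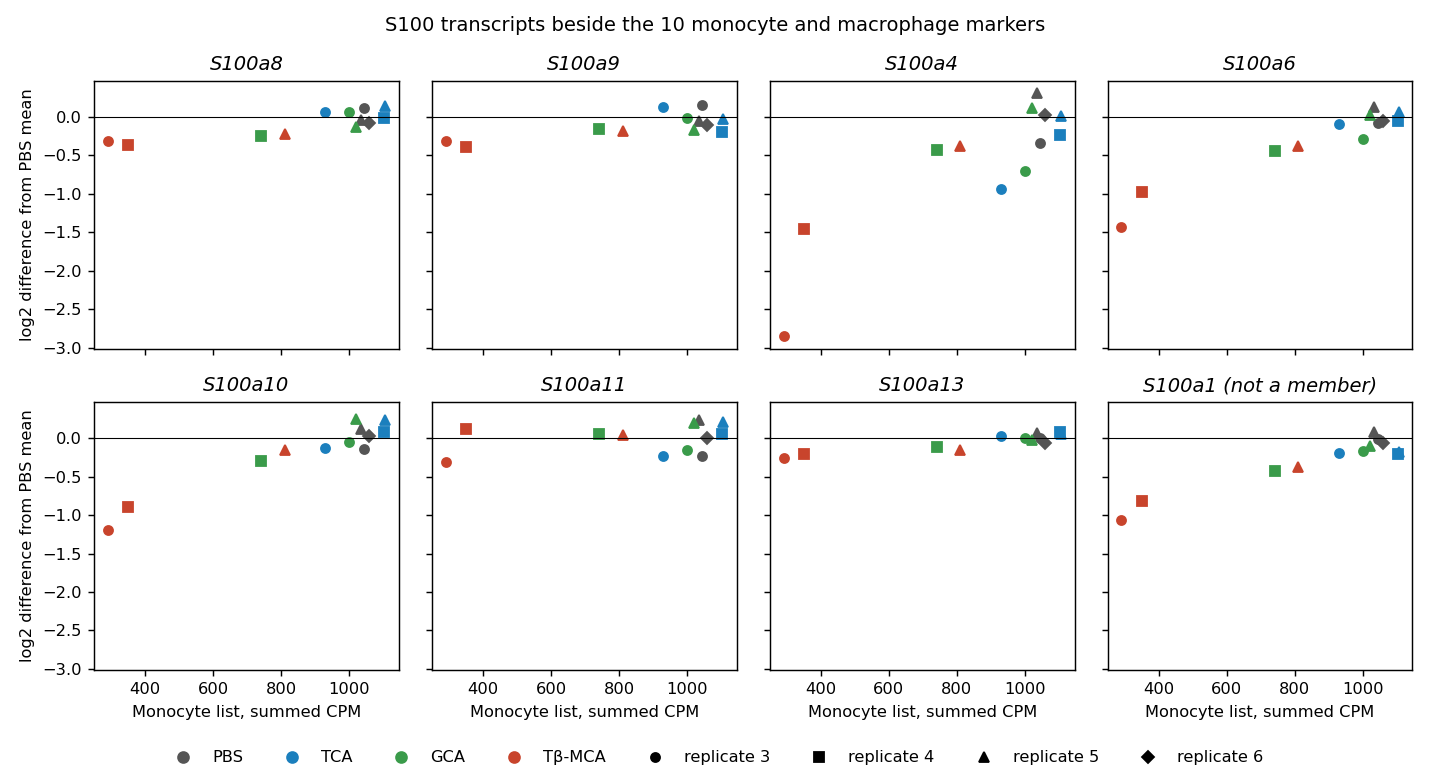
Log2 difference of each member and S100a1 from the PBS mean (y axis) against the summed CPM of 10 monocyte and macrophage markers (x axis) in the 12 samples, coloured by group and shaped by replicate number. Tβ-MCA replicates 3 and 4, at 290 and 350 CPM of the list, have the lowest values of the 12 samples for each gene shown except S100a11.

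TCA and GCA left the 7 transcripts without a call. Against PBS, 0 of 7 members were called with TCA and 0 of 7 with GCA by edgeR's quasi-likelihood test, where 0% of all tested genes were called in either comparison. At an unadjusted p under 0.05 there were 546 genes (3.26%) with TCA and 591 genes (3.53%) with GCA, and no member among them, and DESeq2 called 1 gene with TCA and 0 with GCA, none of them a member. The S100a8 values were 1712, 1616 and 1805 CPM with TCA, and 1705, 1374 and 1491 CPM with GCA. Both groups overlapped with PBS. The log2 fold change of S100a8 was 0.07 (-0.11 to 0.24) with TCA and -0.10 (-0.27 to 0.07) with GCA, and that of S100a9 was -0.03 (-0.23 to 0.17) and -0.12 (-0.31 to 0.08). S100a9 was at 25022, 19929 and 22395 CPM with TCA, and at 22765, 20471 and 20328 CPM with GCA. No member had groups that did not overlap, against 9.67% of genes with TCA and 9.55% with GCA.

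The members with a wide spread set looser bounds. S100a4 was at 38.9, 63.2 and 75.3 CPM with TCA and at 45.7, 55.4 and 81.1 CPM with GCA. In both groups replicate 3 was the lowest and replicate 5 the highest. The log2 fold changes were -0.36 (-1.59 to 0.88) with TCA and -0.32 (-1.56 to 0.92) with GCA, and both intervals include the value found with Tβ-MCA. For S100a6 they were -0.03 (-0.54 to 0.48) and -0.22 (-0.73 to 0.29), and for S100a10 0.07 (-0.42 to 0.55) and -0.02 (-0.50 to 0.47). S100a11 gave 0.01 (-0.32 to 0.34) and 0.02 (-0.31 to 0.35), and S100a13 0.06 (-0.10 to 0.21) and -0.05 (-0.20 to 0.10).

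TCA and GCA share the cholic acid part and differ in the amino acid joined to it, taurine in TCA and glycine in GCA, and were given at the same dose and for the same time. In this 1 pair of compounds 0 of 7 members were called, against 0% of genes, with 412 genes (2.46%) and no member at an unadjusted p under 0.05, and 0 by DESeq2. The difference of GCA from TCA on the log2 scale was -0.17 (-0.34 to 0.01) for S100a8 and -0.08 (-0.28 to 0.11) for S100a9. It was 0.04 (-1.20 to 1.28) for S100a4, -0.19 (-0.70 to 0.32) for S100a6 and -0.08 (-0.57 to 0.40) for S100a10. For S100a11 it was 0.02 (-0.31 to 0.35). S100a13 was lower in every GCA sample (25.7, 23.7 and 25.2 CPM) than in any TCA sample (26.3, 27.2 and 26.8 CPM), 1 of 7 members against 4.19% of genes, with a log2 difference of -0.11 (-0.26 to 0.05). These intervals do not show that the 2 compounds act alike.

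Tβ-MCA carries taurine like TCA but has a muricholic acid part, and its labelled dose differs, so its values are only set beside theirs. The mean S100a8 level was 1327 CPM with Tβ-MCA, 1711 CPM with TCA and 1523 CPM with GCA, and that of S100a6 was 80.7, 145 and 126 CPM. The mean S100a11 level was 455, 473 and 479 CPM.

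Across the 12 samples the way the members varied together is described by the correlation of log2 CPM, where the points share libraries and the 4 treatments. S100a6 and S100a10 had the highest r over 12 samples (Pearson r 0.97, and 0.81 over the 9 samples without Tβ-MCA). S100a4 followed both, with r of 0.93 with S100a6 and 0.93 with S100a10 (0.65 and 0.68 without Tβ-MCA). The calprotectin genes S100a8 and S100a9 correlated at 0.87 (0.71 without Tβ-MCA), and S100a8 correlated as much with S100a13, at 0.88 (0.71). S100a13 also went with S100a6, at 0.89 (0.68). S100a11 went against S100a9, at -0.30 over 12 and -0.70 over 9 samples, and with S100a4, at 0.65 over 12 samples and at 0.84, the highest r of any 2 members, over 9. Within the PBS, TCA and GCA groups, replicate 3 was the highest for S100a9 and the lowest for S100a4 and S100a11.

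The 3 genes most like each member among 8068 genes with a mean of at least 10 CPM were as follows, by r over the 12 samples. S100a8 was closest to Mmp8 (0.966), the neutrophil collagenase, then to Cetn3 and 4930562F07Rik. S100a9 was closest to Ceacam2 (0.965), Gm16933 and Plekha2. Beside the overlapping Gm42674, S100a4 was closest to Ifi30 (0.986), a lysosomal thiol reductase, and Calr (0.985), the chaperone calreticulin. S100a6 was closest to Zfp36l1 (0.989), which promotes mRNA decay, Klhl6 and Clec7a. S100a10 was closest to Clec7a (0.991), the β-glucan receptor dectin-1, Plekho1 and Ms4a4a. S100a11 was closest to Pfdn5 (0.956), a prefoldin subunit, and to Rpl13a and Flt3l, which overlap on 1 strand so that their counts are uncertain. S100a13 was closest to Fam111a (0.949), D1Ertd622e and Xiap, an inhibitor of apoptosis. All these correlations were 0.793 or higher in the 9 samples without Tβ-MCA.

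The genes around the S100 proteins were taken from lists of receptors, binding partners and transcription factors. Of 8 receptors and coreceptors of released S100 proteins, edgeR called 1 higher with Tβ-MCA and none lower, where 4.44% of all genes were called higher. At an unadjusted p under 0.05, 1 was higher and 3 were lower, where 12.3% of all genes were lower. DESeq2 also called Cd14, the coreceptor that passes ligands to TLR4, lower. Its mean was 28.8 CPM with PBS and 18.5 CPM with Tβ-MCA, with an adjusted p of 0.115 in edgeR (Benjamini-Hochberg). The gene called by edgeR was Ly96, the MD-2 coreceptor of TLR4, at 2.98, 4.50 and 3.78 CPM with PBS and at 5.03, 8.53 and 6.72 CPM with Tβ-MCA. Its log2 fold change was 0.85 (SE 0.23), with an adjusted p of 0.0366 (edgeR, Benjamini-Hochberg). Tlr4 itself had a log2 fold change of 0.12 (-0.07 to 0.30) and Ager, which encodes RAGE, of 0.01 (-0.24 to 0.26). Leaving out any 1 of the 6 samples other than Tβ-MCA replicate 5 ended the Ly96 call, with adjusted p of 0.0736 to 0.184. In those settings 0 to 168 of all tested genes were called.

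Of 17 intracellular partners 15 were tested, and edgeR called 1 lower with Tβ-MCA, where 3.18% of all genes were called lower. At an unadjusted p under 0.05, 5 were lower, against 12.3% of all genes. Ncf1, which encodes the p47phox subunit of the NADPH oxidase that calprotectin helps to activate, was at 2579, 2342 and 2295 CPM with PBS and at 1866, 1771 and 2079 CPM with Tβ-MCA. The groups did not overlap. The log2 fold change was -0.34 (SE 0.077), with an adjusted p of 0.0251 (edgeR, Benjamini-Hochberg), and leaving out any 1 sample other than Tβ-MCA replicate 5 gave 0.0506 to 0.130. With such a sample left out, 0 to 168 of all tested genes were called. The median log2 fold change of the partners was -0.04. Of 7 transcription factors known for S100a8 and S100a9 none was called by edgeR, and DESeq2 called Cebpa. At an unadjusted p under 0.05, 4 were lower and 1 was higher, where 12.3% of all genes were lower. The 3 factors with the lowest p were of the C/EBP family, which drives granulocyte genes. Cebpa had a log2 fold change of -0.62 (SE 0.20, adjusted p of 0.0813 in edgeR, Benjamini-Hochberg), Cebpd of -0.29 and Cebpb of -0.23. Cebpa was at 34.9, 34.5 and 61.9 CPM in the Tβ-MCA samples and at 64.0 to 69.7 CPM with PBS, so it also was nearest to PBS in replicate 5. None of the genes of these 3 lists was called with TCA, with GCA or between them by edgeR or DESeq2, where 3 gene comparisons had an unadjusted p under 0.05.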

How the data were processed

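Mouse neutrophil RNA from 12 samples in 4 groups of 3 was sequenced from stranded mRNA libraries. The submitters' processing notes name Trimmomatic 0.36, STAR 2.5.3a, featureCounts of Subread 1.5.1 and the GRCm38 (mm10) genome. The annotation release, the strand setting and whether pairs or mates were counted are not given in the sources used here. The authors deposited raw counts of reads per gene and RPKM values, which differ from values recomputed with the exon lengths and library totals by a relative difference of at most 1.30e-06. In the deposited table, columns named GA were taken as GCA, and 2 gene names occur more than once. No 2 samples of a group agreed within sampling noise (chi-square per gene of at least 4.79).

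Counts were tested with edgeR 4.0.16 (R 4.3.3): TMM, filterByExpr by group, robust glmQLFit and glmQLFTest, with all 12 samples in 1 fit and Benjamini-Hochberg adjustment over 16761 genes. Intervals are 95%. Correlations used log2 CPM with a prior count of 2. The test was checked on simulated data. DESeq2 1.42.0, other scalings and filters, a replicate block and leaving out each sample were alternatives. Tβ-MCA was not tested against TCA or GCA, since its labelled dose differs. The named genes are the members, the other S100 genes, called genes of the 3 other lists (or the 3 with the lowest p), neighbours and the 3 genes most like each member. Members and lists were chosen with earlier results of these data known.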

Additional observations from a re-analysis of the deposited data

How the results depend on the processing

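Counts of called genes depended on the processing more than the fold changes did. With Tβ-MCA against PBS, 1278 genes and 1 member were called. DESeq2 gave 2103 genes and 4 members, no filter on low counts 2406 and 5, the fit of only the 2 groups 0 and 0 (3485 genes at an unadjusted p under 0.05), the rule of unadjusted p with a fold change of 2 gave 494 and 0, and at least 10 counts in every sample gave 2 members. Leaving out 1 sample gave 0 to 3076 genes and 0 to 5 members. Scaling by total library size moved the split of calls from 745 higher and 533 lower to 1013 and 395. S100a8 was lower in all 13 alternatives and called in 7, with adjusted p of 0.00112 to 0.171. S100a9, S100a6 and S100a10 were lower in all 13 and called in 4 each, S100a4 in 2, S100a13 and S100a11 in 0. For S100a8, S100a9, S100a6, S100a10 and S100a4, 1 call each came from the fit with no filter. There the adjusted p of S100a4 was 4.3e-39, against 0.202 in the main fit (edgeR, Benjamini-Hochberg), from the same widely spread counts. Calls of that fit are therefore weak support. For all genes, TCA against PBS (0 called) gave 1 by DESeq2, 37 with no filter, 3 with the replicate block and 78 by the fold-change rule. GCA against PBS (0) gave 36 with no filter and 89 by the fold-change rule, and GCA against TCA (0) gave 42 and 74.

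As a replicate block, the replicate number gave 1498 genes and 3 members called with Tβ-MCA, S100a8 (adjusted p of 0.0209), S100a9 (0.0222) and S100a10 (0.0278). Samples with the same number deviated together weakly, with r of 0.06 to 0.326 (mean 0.189) over 15 pairs and a mean of -0.072 over 39 other pairs. All 3 pairs of GCA and Tβ-MCA were at 0.197 to 0.239, but PBS shares only 2 numbers with each bile acid (0.24 and 0.06 with Tβ-MCA), and the lowest pair of TCA and GCA was at 0.067, where 4 of 6 samples correlated best with their own number. The 4 samples numbered 3 correlated with each other at 0.197 to 0.326. Nothing states what the numbers stand for, so the main fit had no block. Whether samples of the same number shared a preparation was not tested, and the main fit would ignore such a pairing. Differences near 0 changed sign. With the block, S100a10 in GCA against PBS was 0.053, and S100a11 was -0.010 in GCA and -0.031 in TCA against PBS. Leaving out 1 sample, S100a11 ranged from -0.16 to 0.072 with Tβ-MCA, -0.10 to 0.13 with TCA, -0.082 to 0.15 with GCA and -0.095 to 0.12 in GCA against TCA. S100a10 ranged from -0.025 to 0.15 with TCA, -0.17 to 0.11 with GCA and -0.24 to 0.040 in GCA against TCA. S100a9 ranged from -0.12 to 0.048 with TCA and -0.16 to 0.0018 in GCA against TCA, S100a6 from -0.076 to 0.041 with TCA, and S100a4 from -0.23 to 0.25 in GCA against TCA. The cause of these changes was not tested. S100a10 had the fewest counts of the members, at least 219 per sample.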
